A study of Mus musculus with 12 samples.

Results

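Cathepsins and other lysosomal genes were followed across 4 groups of mouse mammospheres. The set holds 33 genes, chosen by gene name from a list of 33 names, and all 33 were found among the 23406 genes of the deposited table. By role they are 9 cysteine cathepsins, 4 other lysosomal proteases, 7 glycosidases, 5 lipid hydrolases, lipid carriers and activators, 5 membrane proteins, and a group of 3 made of the regulator Tfeb and the lysosome-linked glycoproteins Gpnmb and Grn. Mammospheres are spheres that mammary cells form in suspension culture, and these were taken at passage 2. The mice were C57BL/6J, either wild type (WT) or p66Shc knockout (KO), sampled at 2 months (called young here) or at 12 months (called aged), and each of the 4 groups has 3 libraries of total RNA. The strain background is shared by every group, and the KO lacks p66Shc, the longest protein made from Shc1. The labels do not tie a library to a mouse or say whether animals were pooled, so p-values measure the spread between libraries.

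Lysosomes are acidic organelles in which hydrolases break down protein, glycans and lipids delivered by endocytosis and autophagy. Cathepsins are made as inactive precursors and are activated at acidic pH, and in the mammary gland lysosomal proteases are known for their part in tissue regression after lactation. TFEB and its relatives MITF, TFE3 and TFEC bind E-box sequences in the promoters of many lysosomal genes and are held in the cytoplasm by mTORC1 signalling at the lysosome surface.

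The E-box CACGTG is shown here because it is the promoter sequence through which this gene class is known to be regulated. RefSeq promoters on GRCm38.p6, from 250 bases before to 50 bases after each gene's start, were matched for 30 of the 33 genes; Asah1, Ctsb and Ctsh had no entry. The letters CACGTG, a palindrome read the same on both strands, occurred in 11 of the 30 genes (36.7%), against 7.15% of all 32851 promoters and 11.7% of the 10248 tested genes with a promoter. The longer TCACGTG, searched on both strands and always containing the E-box, occurred in 9 of the 30, against 3.77% of promoters and 6.94% of tested genes. The full CLEAR palindrome, which extends the E-box further on both sides and was searched as exact letters, occurred in 0 of the 30, against 0.326% of promoters and 0.761% of tested genes. A gene was counted where any of its promoters held the letters, and a match is only a match of letters. The genes with the E-box were Ctsa, Ctsd, Ctsf, Ctsl, Gaa, Gla, Glb1, Lamp1, Lgmn, Mcoln1 and Naglu. Windows are printed for Lamp1, which holds the motif 4 times, for Lgmn and Glb1, whose levels moved in opposite directions with age in the 2 genotypes, and for Gaa, a gene with large spread between libraries. Capitals mark CACGTG, and each is 5′ to 3′ on the gene's own strand.
Lamp1: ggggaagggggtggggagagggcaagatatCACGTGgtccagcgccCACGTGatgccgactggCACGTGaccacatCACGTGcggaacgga
Lgmn: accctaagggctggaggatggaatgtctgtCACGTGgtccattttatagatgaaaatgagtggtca
Glb1: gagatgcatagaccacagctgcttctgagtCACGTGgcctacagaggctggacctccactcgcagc
Gaa: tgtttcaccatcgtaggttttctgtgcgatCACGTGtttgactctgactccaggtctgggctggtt
The Lamp1 window is chr8:13159070-13159160 on the plus strand, and its motifs begin 61, 45, 28 and 15 bases before the start. The Lgmn window is chr12:102439106-102439171 on the minus strand, with the motif 49 bases before the RefSeq start, and lies inside the span deposited for the gene. Lgmn and Ctsa have 2 RefSeq promoters each, and the motif was found in a single promoter of each. The Glb1 window is chr9:114401000-114401065 on the plus strand, with the motif 48 bases before the start. The Gaa window is chr11:119267793-119267858 on the plus strand, with the motif 140 bases before the start.

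The libraries held 31845169 to 109079737 reads in genes, with replicate 3 of aged KO the deepest. Values are deposited CPM, read counts scaled by the authors to a common library size, shown as mean ± SD with n = 3 unless each library is given. Changes are differences in log2(CPM + 0.5) from limma, with their standard error (SE) and an adjusted p, and a gene is called changed at an adjusted p under 0.05. The fold of a low gene is understated on this scale. Shc1, which checks the labels only in part because the other Shc1 proteins remain in the KO, measured 296 ± 25.3 CPM in young WT, 211 ± 8.44 in aged WT, 208 ± 0.329 in young KO and 169.9 ± 7.60 in aged KO. Of the epithelial markers that define the labelled cells, the summed luminal list was 255.5 to 326.7 CPM in young WT, 3140 to 3257 in aged WT, 376.2 to 445.1 in young KO and 386.4 to 403.6 in aged KO. The 6 fibroblast markers summed to between 5994 and 9869 CPM in the 12 libraries, above the luminal sum in each group. No marker of the macrophage, luminal, fibroblast, muscle, mast cell or endothelial lists was at 0 in all libraries.

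The lysosomal genes were abundant. Per kilobase of exons (GENCODE vM21), Ctsd ranked 5th of all genes with a mean of 2412 CPM per kb over the 12 libraries. Psap ranked 10th with 1541 CPM per kb and Ctsk 12th with 1423. Lamp1, Ctsb and Ctsl followed at rank 24, 25 and 31, with 707, 705 and 609.9 CPM per kb. Cathepsin D is an aspartic protease, prosaposin is the precursor of the saposins that assist sphingolipid breakdown, and cathepsin K is a collagen-degrading enzyme best known from osteoclasts. At the other end, Tfeb had 1.05 CPM per kb, with 90 to 523 reads in a library. The summed 33 genes made up 3.58% of counts in young WT, 3.365% in aged WT, 3.18% in young KO and 3.11% in aged KO. The highest group mean of a gene fell in young WT for 15 genes, in aged KO for 12 and in aged WT for 6, and in young KO for none.

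**Figure D1:**
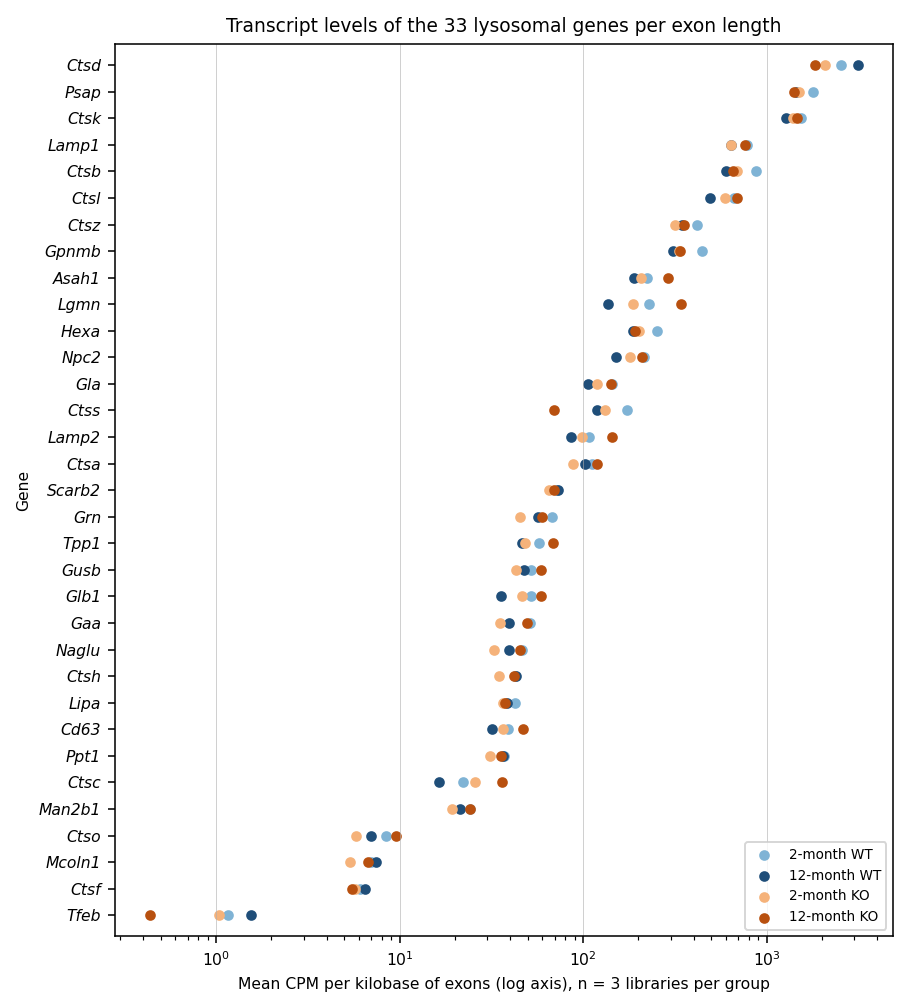
Mean CPM per kilobase of exons of each of the 33 genes on a log axis, with 1 point for each of the 4 groups (n = 3 libraries each). The genes span from Tfeb, at 1.05 CPM per kb over all libraries, to Ctsd, at 2412, and group means of a gene lie close together beside that span.

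With age in WT mammospheres, most of the set went down. Lgmn fell by 0.74 (SE 0.077), Glb1 by 0.54 (SE 0.063) and Ctsb by 0.53 (SE 0.055) on the log2 scale, while Ctsd rose by 0.30 (SE 0.091). In limma 21 of the 33 genes fell and 1 rose at 12 against 2 months, and 11 were not called; of all 13961 genes tested 58.0% changed, 35.6% lower and 22.3% higher. The median log2 change was -0.28 over the 33 and -0.08 over all tested genes. By role, 7 of 9 cysteine cathepsins fell, 2 of 4 other proteases (Lgmn and Tpp1), 3 of 7 glycosidases, 4 of 5 lipid genes, 3 of 5 membrane proteins, and both Gpnmb and Grn. The WT libraries of the 2 ages did not overlap for 23 of the 33 genes, against 62.3% of tested genes. Over the same groups the luminal list rose in 7 of 7 genes and the basal epithelial list in 6 of 6 (from 43.7 to 53.6 CPM in sum to 205 to 216). The mast cell list fell in 5 of 5 genes (from 111 to 126 CPM in sum to 35.2 to 43.8), the fibroblast list fell in 6 of 6 (from 9408 to 9864 CPM in sum to 5994 to 6305) and the muscle list in 6 of 6 (from 868.3 to 1020 CPM to 172.4 to 194.8). The macrophage list summed to 1421 to 1693 CPM in young WT and 1181 to 1236 in aged WT, with 4 of 12 measured genes lower and 1 higher, and 2 of 4 endothelial genes were higher and none lower. The part of these markers in the result was not tested, and in bulk samples fewer cells of a type and less RNA per cell cannot be told apart. When the normalisation was recomputed over all 12 libraries 17 fell and 2 rose, against 29.7% of tested genes lower and 25.7% higher. With edgeR on the recovered reads 15 fell and 3 rose, and over all genes the split moved from 3120 higher and 4971 lower to 3898 higher and 3766 lower.

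With age in KO mammospheres, most genes of the set went up. Lgmn rose by 0.85 (SE 0.077), Ctso by 0.71 (SE 0.067) and Lamp2 by 0.55 (SE 0.086), while Tfeb fell by 1.08 (SE 0.20) and Ctss by 0.97 (SE 0.17). In limma 21 of 33 rose, 2 fell and 10 were not called, against 67.0% of all genes changed, 32.9% higher and 34.2% lower. The median was 0.26 over the 33 and -0.02 over all. Of the most abundant genes per kilobase named above, Lamp1 and Ctsl rose, while Ctsd, Psap, Ctsk and Ctsb were not called. The share of counts in the 33 genes was 3.18% in young KO and 3.11% in aged KO. The rise covered 6 of 7 glycosidases, 4 of 5 membrane proteins, 3 of 4 other proteases, 4 of 9 cysteine cathepsins, 3 of 5 lipid genes, and Grn. KO libraries of the 2 ages did not overlap for 26 of the 33, against 72.9% of tested genes. The summed macrophage list fell from 1166 to 1305 CPM to 480.8 to 879.3 (9 of 12 measured genes lower, 2 higher), the mast cell list rose in 5 of 5 genes (from 26.8 to 28.2 CPM to 147 to 173) and the endothelial list in 4 of 4 (from 39.9 to 46.4 CPM to 208 to 225). The muscle list had 4 of 6 genes higher and 1 lower (from 245 to 297 CPM to 804 to 1511), the fibroblast list 3 higher and 3 lower, the basal list 3 of 6 higher and 1 lower, and the luminal list 1 of 7 higher and 1 lower. The part of these markers in the result was not tested. Calls of Gaa and Naglu were lost without replicate 3 of aged KO, the deepest library (adjusted p = 0.0618 and 0.0839), and that of Naglu also without replicate 1 or 2 of young KO (0.0501 and 0.0506).

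**Figure D2:**
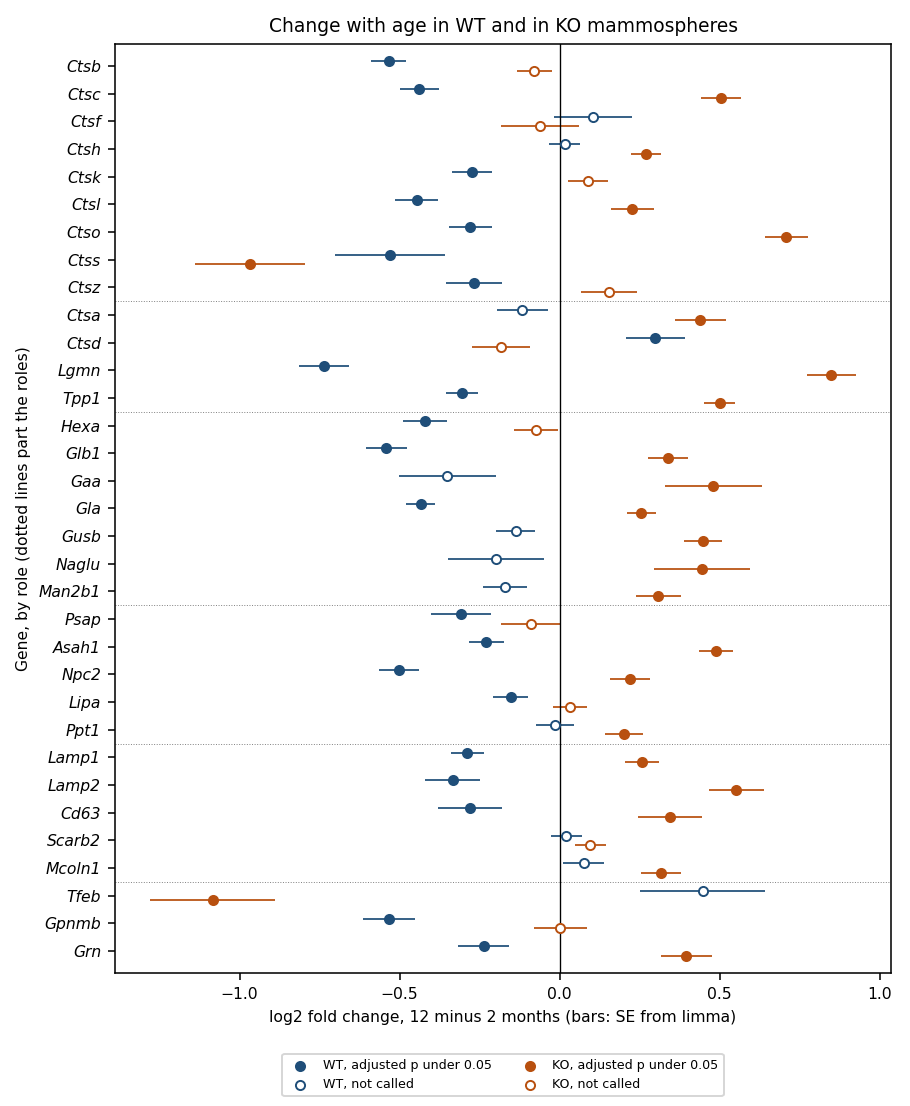
Log2 fold change from 2 to 12 months of the 33 genes, in order of role, in WT (blue) and KO (orange), with SE bars from limma and filled points at an adjusted p under 0.05. Blue points lie left of 0 for 27 genes and orange points lie right of 0 for 26.

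The age effect differed between the genotypes for most of the set. In the age by genotype interaction, which is the KO age effect minus the WT age effect, Lgmn had 1.58 (SE 0.11), Ctso 0.99 (SE 0.095) and Ctsc 0.94 (SE 0.088). In limma 26 of 33 genes were above 0 at an adjusted p under 0.05 and 2 below, Tfeb and Ctsd, against 57.7% of all genes called, 31.4% above and 26.2% below. All 7 glycosidases were among the 26. The median interaction was 0.55 over the 33 and 0.02 over all tested genes. Ctsf, Ctss, Psap, Lipa and Scarb2 were not called. A fall called in WT and a rise called in KO occurred together in 13 genes, namely Ctsc, Ctsl, Ctso, Lgmn, Tpp1, Glb1, Gla, Asah1, Npc2, Lamp1, Lamp2, Cd63 and Grn, against 9.40% of all tested genes. Of these, the WT calls of Cd63 and Grn were lost when the normalisation was recomputed over all 12 libraries (adjusted p = 0.0752 and 0.072), and in 8 and 5 of 21 alternative settings in all. On the recomputed scale 11 genes had this pattern. With edgeR 10 had it, as the WT fall of Asah1 was lost too (adjusted p = 0.0667). DESeq2 gave 12, without Cd63 and Grn and with Ctsz. The share of all tested genes with this age pattern was computed in the main setting only. The interaction calls of Ppt1 and Mcoln1 were lost on the recomputed scale too (0.158 and 0.0963), and in 11 and 10 of the 20 settings run for the interaction.

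At 2 months most of the set was lower in KO than in WT mammospheres. On the log2 scale Grn had -0.57 (SE 0.080), Ctso -0.53 (SE 0.067) and Gaa -0.52 (SE 0.15), and Ctsc was higher by 0.21 (SE 0.062). In limma 20 of 33 were lower, 1 higher and 12 not called, against 16.1% of all genes changed, 14.2% lower and 1.86% higher. The median was -0.28 over the 33 and -0.09 over all. All 4 other proteases were lower, 5 of 7 glycosidases, 4 of 9 cysteine cathepsins, 3 of 5 lipid genes, 2 of 5 membrane proteins, and Gpnmb and Grn. The libraries of the 2 genotypes did not overlap for 29 of the 33, against 32.1% of tested genes. This and the other overlap counts were made on the deposited scale only and may differ on the recomputed scale. When the normalisation was recomputed over all 12 libraries, 10 were lower and 1 higher (all genes 10.4% changed, 7.38% lower and 3.05% higher). Those 10 were Ctsb, Ctsh, Ctso, Ctsz, Hexa, Gla, Lamp1, Mcoln1, Gpnmb and Grn. The calls of all 4 other proteases, of the lipid genes and of Gaa, Gusb and Man2b1 were thus lost. With edgeR 9 were lower, the same genes without Gla, and 1 higher, against 940 lower and 474 higher of all 13961 genes. That recomputed scale moved young WT by a mean of -0.04 and young KO by 0.05 on the log2 scale. The mast cell list was lower in young KO in 5 of 5 genes (111 to 126 CPM in young WT), the muscle list in 6 of 6 (245 to 297 CPM in young KO) and the endothelial list in 4 of 4 (72.5 to 79.5 CPM in young WT). The luminal list had 4 of 7 genes higher and 1 lower, the basal list 1 of 6 higher and 3 lower, the fibroblast list 2 of 6 lower and none higher, and no gene of the macrophage list was called. The part of these markers in the result was not tested.

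At 12 months the called genes of the set were mostly higher in KO. Lgmn was higher by 1.31 (SE 0.077), Ctsc by 1.15 (SE 0.062) and Lamp2 by 0.76 (SE 0.086), and Tfeb had -1.65 (SE 0.20), Ctss -0.82 (SE 0.17) and Ctsd -0.77 (SE 0.091). In limma 16 of 33 were higher, 3 lower and 14 not called, against 70.2% of all genes changed, 31.3% higher and 38.9% lower. The median was 0.18 over the 33 and -0.07 over all. The higher genes were Ctsc, Ctsk, Ctsl and Ctso, Ctsa, Lgmn and Tpp1, Glb1, Gla, Gusb and Man2b1, Asah1 and Npc2, and Lamp1, Lamp2 and Cd63. The libraries did not overlap for 21 of the 33, against 73.9% of tested genes. The luminal list was lower in aged KO in 7 of 7 genes, the basal list in 6 of 6 and the macrophage list in 9 of 12, with 1 higher. The mast cell list was higher in aged KO in 5 of 5 genes, the endothelial list in 4 of 4 (87.1 to 95.1 CPM in aged WT), the muscle list in 5 of 6 with none lower, and the fibroblast list in 4 of 6 (Dcn, Lum, Pdgfra and Pdgfrb) with 2 lower; the other sums are given above, and the part of these markers in the result was not tested. Ctso, Ctsa, Lgmn, Tpp1, Gla, Gusb, Man2b1, Npc2 and Lamp1, 9 of the 33, were lower in KO at 2 months and higher at 12, against 7.06% of all tested genes. On the recomputed scale 4 genes had this pattern, Ctso, Gla and Lamp1 of the 9 and also Ctsb. With edgeR 3 had it, Ctso, Lamp1 and Ctsb. DESeq2 on the recovered reads gave 9, namely Ctso, Ctsa, Tpp1, Gla, Man2b1, Npc2 and Lamp1, and also Ctsb and Gaa. The share of all tested genes with this pattern was computed in the main setting only.

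**Figure D3:**
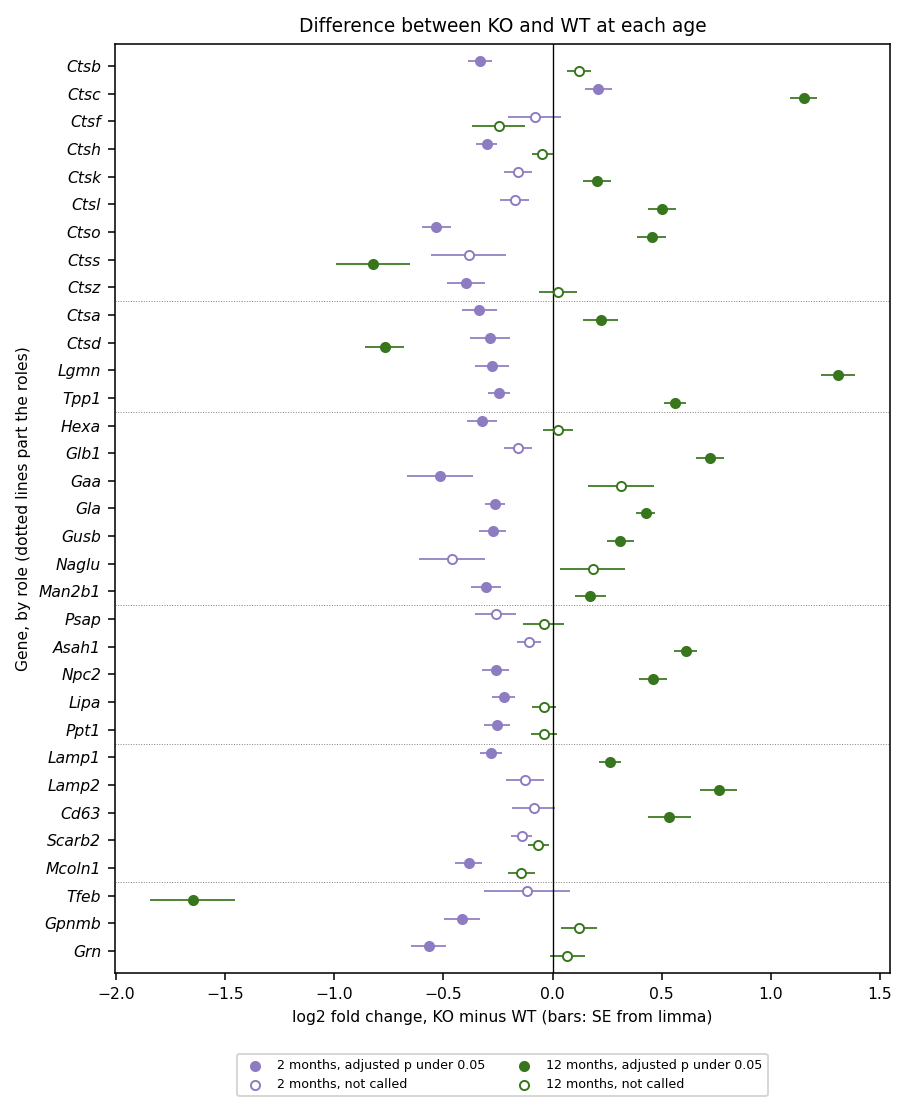
Log2 difference between KO and WT of the 33 genes, in order of role, at 2 months (purple) and at 12 months (green), with SE bars from limma and filled points at an adjusted p under 0.05. Purple points lie left of 0 for 32 genes, and Lgmn and Ctsc lie furthest right at 12 months while Tfeb lies furthest left.

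Among the cysteine cathepsins, Ctsb (chr14:63122461-63145923), a protease with endo- and exopeptidase activity, measured 5343, 5350.3 and 5128 CPM in young WT, 3670.1, 3516 and 3738 in aged WT, 4186, 4200.4 and 4166 in young KO, and 3953, 3821 and 4112 in aged KO. The young WT libraries stood above all others, and the change with age in KO was -0.08 (SE 0.055, adjusted p = 0.22 in limma). Ctsc (chr7:88278092-88310875) encodes a dipeptidyl peptidase that activates granule serine proteases. It measured 133, 125 and 128 CPM in young WT, 93.3, 103 and 88.3 in aged WT, 154, 147 and 146 in young KO, and 211, 223 and 199 in aged KO. No libraries of different groups overlapped, and the order was aged KO, young KO, young WT, aged WT. Ctsc fell by 0.44 (SE 0.062, limma adjusted p = 4.14e-05) with age in WT and rose by 0.50 (SE 0.062, limma adjusted p = 9.90e-06) in KO. Its higher level in young KO was lost without any 1 of the young libraries other than replicate 1 of WT (adjusted p from 0.0716 to 0.138) and without replicate 1 of aged WT (0.0517).

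Ctso (chr3:81932615-81956725), a little-studied cysteine cathepsin, measured 42.2, 43.3 and 44.1 CPM in young WT, 37.1, 37.8 and 31.9 in aged WT, 30.01, 28.5 and 30.6 in young KO, and 47.1, 49.1 and 50.3 in aged KO. All aged KO libraries lay above, and all young KO libraries below, every WT library. Ctss (chr3:95526785-95556403), the cathepsin of antigen-presenting cells, measured 255, 248 and 201 CPM in young WT, 159, 158 and 168 in aged WT, 175, 159 and 205 in young KO, and 111, 63.7 and 107 in aged KO. It was the only gene of the 33 that fell with age in both genotypes, by 0.53 (SE 0.17, limma adjusted p = 0.0173) in WT. The 12 macrophage markers did not move as one. In WT with age Lyz2, Cd68, Ptprc and Mrc1 fell (Lyz2 and Cd68 not on the recomputed scale, adjusted p = 0.0793 and 0.0797), Cd14 rose by 2.14, and C1qa, C1qb and C1qc had 0.19, 0.16 and 0.11 and were not called. In KO 9 fell, with Lyz2 at -1.34 and Cd68 at -1.20, Cd14 and Mrc1 rose by 1.04 and 0.86, and Mpeg1 was not called. Whether Ctss follows any of these genes was not tested. Ctsk, Ctss and Ctso lie 6.07, 6.10 and 7.46 Mb from Shc1 on chromosome 3.

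Ctsl, a broad lysosomal endopeptidase, had group means of 4326 ± 214, 3173 ± 140.2, 3836 ± 112 and 4496 ± 289 CPM in young WT, aged WT, young KO and aged KO. It fell by 0.45 (SE 0.066) in WT and rose by 0.23 (SE 0.066) in KO. Of its exon bases 26.8% lie under the antisense gene Gm47123, which is not in the deposited table. Ctsb shares 12.8% of its exon bases with Fdft1, a counted gene on the opposite strand (mean 94.9 CPM). The strand setting of the counting is not given in the sources used here. Ctsk had 2339 ± 79.3, 1939 ± 145, 2096 ± 78.0 and 2229.6 ± 58.7 CPM. It fell by 0.27 (SE 0.063) in WT and was not called with age in KO, and its higher level in aged KO was lost without replicate 2 of aged WT (adjusted p = 0.0582). Ctsz, a carboxypeptidase, had 604 ± 80.7, 499 ± 14.9, 456 ± 14.8 and 509 ± 46.7 CPM, and its fall in WT was lost in 5 of 21 alternative settings (adjusted p from 0.0537 to 0.0842), among them the recomputed scale and leaving out replicate 2 or 3 of young WT or replicate 2 of aged WT. Ctsh, an aminopeptidase, had 193 ± 1.99, 195 ± 7.93, 156 ± 4.42 and 189 ± 6.94 CPM, with young KO below the other 3 groups. With age it rose in KO (0.27, SE 0.048) and was not called in WT. Ctsf had 30.6 ± 4.05, 32.8 ± 0.912, 28.8 ± 1.17 and 27.9 ± 5.79 CPM and was called in no comparison.

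**Figure D4:**
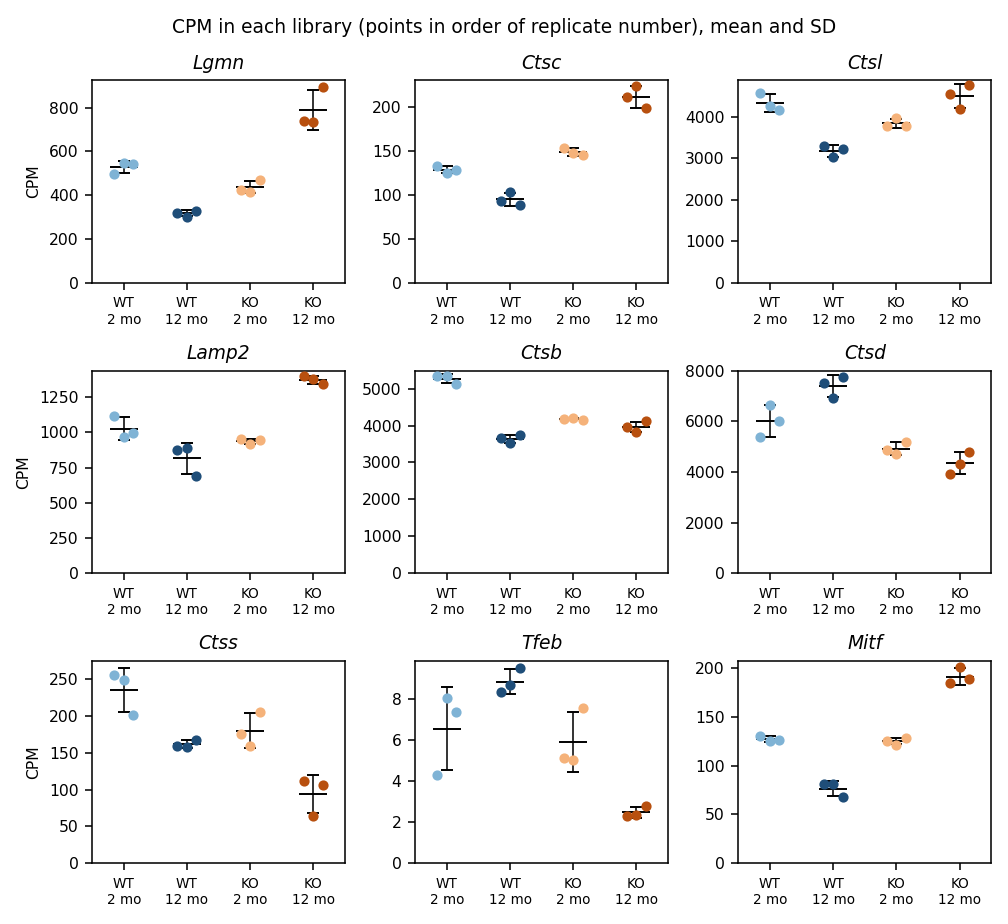
CPM in each library of 8 lysosomal genes and of Mitf, with points in order of replicate number and black bars for mean and SD (n = 3), each axis starting at 0. Lgmn, Ctsc and Lamp2 are highest in aged KO and lowest in aged WT, whereas Tfeb and Ctsd are highest in aged WT and lowest in aged KO.

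Of the other proteases, Lgmn (chr12:102394097-102439697), legumain, cleaves after asparagine and processes cathepsins to their 2-chain forms. Its libraries measured 499, 548 and 541 CPM in young WT, 321, 303 and 329 in aged WT, 425, 417 and 469 in young KO, and 739, 736 and 895 in aged KO. The 4 groups did not overlap, and aged KO stood 2.48-fold above aged WT (limma adjusted p = 5.72e-09). The lower level in young KO was lost on the recomputed scale (adjusted p = 0.151) and without replicate 2 or 3 of young WT or replicate 1 or 2 of young KO (0.0885 to 0.10). Ctsd (chr7:142375915-142387870) went the other way. It measured 5390.4, 6659.8 and 6023 CPM in young WT, 7507, 6928 and 7746 in aged WT, 4882, 4694 and 5185 in young KO, and 3928, 4328 and 4781 in aged KO. Every aged WT library lay above all 9 others. Ctsd's rise in WT was lost without replicate 1 of young WT, its lowest library there (0.22, adjusted p = 0.0535), and with no filter on low genes (0.0551). The change with age in KO, -0.18 (SE 0.091), was not called (limma adjusted p = 0.0927). In GENCODE vM21, 34.4% of Ctsd exon bases are shared on the same strand with Gm49369. That gene is not in the deposited table, and whether the overlap touched the Ctsd counts cannot be told. The lower level at 2 months, -0.29 (SE 0.091, limma adjusted p = 0.0485), was lost under 15 of the alternative settings.

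Tpp1, a tripeptidyl peptidase mutated in a neuronal ceroid lipofuscinosis, had 297 ± 11.9, 240.5 ± 2.50, 251 ± 3.35 and 355 ± 19.1 CPM in young WT, aged WT, young KO and aged KO. It fell by 0.31 (SE 0.050) in WT and rose by 0.50 (SE 0.050) in KO. Ctsa, the carboxypeptidase that protects β-galactosidase and neuraminidase, had 525 ± 53.4, 483 ± 25.7, 415 ± 7.40 and 565 ± 56.6 CPM. Its rise in KO was 0.44 (SE 0.080), and its change in WT was not called. The higher Ctsa level in aged KO was lost without replicate 3 of that group (adjusted p = 0.116) and without replicate 1 or 2 of aged WT (0.075 and 0.0771).

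The glycosidases trim the glycans of glycoproteins, glycolipids and glycosaminoglycans. Glb1 (chr9:114401118-114474377), the lysosomal β-galactosidase whose activity is widely read as a sign of senescence, measured 153, 160.2 and 155 CPM in young WT, 108, 101 and 111 in aged WT, 143, 141 and 135 in young KO, and 159.6, 184 and 187 in aged KO. The aged WT libraries were lowest with no overlap, and in KO the level rose by 0.34 (SE 0.063) with age. Gaa (chr11:119267966-119285698), the acid α-glucosidase that degrades glycogen, measured 182, 299.7 and 258 CPM in young WT, 181, 189 and 198 in aged WT, 167, 166 and 173 in young KO, and 197, 234 and 284 in aged KO. Replicate 1 of young WT was low and fell within the aged WT range, and without it the change with age in WT was -0.55 (adjusted p = 0.000837) in place of -0.35 (limma adjusted p = 0.0638). Gaa's lower level in young KO was lost in 10 of 21 alternative settings (adjusted p from 0.0506 to 0.138), among them the recomputed scale and leaving out replicate 2 or 3 of young WT, replicate 2 of aged WT or any library of young KO.

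Naglu, which acts on heparan sulphate, had the same 2 libraries at its extremes in young WT and aged KO, 92.6 CPM in replicate 1 of the first and 142 in replicate 3 of the second. Its group means were 123 ± 29.0, 105 ± 1.56, 87.5 ± 3.06 and 121 ± 22.7 CPM from young WT to aged WT, young KO and aged KO. Gla, α-galactosidase A, had 469 ± 4.35, 347 ± 15.5, 391 ± 11.5 and 466 ± 2.55 CPM in young WT, aged WT, young KO and aged KO, with a fall of 0.43 (SE 0.046) in WT and a rise of 0.25 (SE 0.046) in KO. Gusb, β-glucuronidase, and Man2b1, an α-mannosidase, rose in KO by 0.45 (SE 0.060) and 0.31 (SE 0.070) and were not called with age in WT. Gusb was highest in aged KO, at 268 ± 15.9 CPM, and lowest in young KO, at 196 ± 4.19. Man2b1's higher level in aged KO (0.17, limma adjusted p = 0.0399) was lost in 9 of 21 alternative settings (0.0504 to 0.165), namely with no filter and without replicate 3 of young WT, replicate 1 or 2 of aged WT, any library of young KO, or replicate 2 or 3 of aged KO. Hexa, the α subunit of β-hexosaminidase, had 503 ± 46.7 CPM in young WT and 374 ± 12.7, 400.4 ± 8.27 and 381 ± 27.2 in aged WT, young KO and aged KO. It was thus highest in young WT, and no change with age was called in KO.

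Among genes for lipid breakdown and transport, Psap (chr10:60277627-60302600) measured 4396, 5597 and 4843 CPM in young WT, 3959, 3962 and 4011 in aged WT, 4079.9, 3872 and 4394 in young KO, and 3634, 3646 and 4361 in aged KO. It fell by 0.31 (SE 0.094, limma adjusted p = 0.0126) with age in WT, a call lost without replicate 2 of young WT, its highest library (-0.21, adjusted p = 0.0608), and with edgeR (0.0534), and was called in no other comparison. Asah1, acid ceramidase, had 756 ± 35.3, 645 ± 35.8, 701 ± 19.2 and 983 ± 14.5 CPM in young WT, aged WT, young KO and aged KO. It fell by 0.23 (SE 0.054) in WT, a call lost with edgeR (adjusted p = 0.0667), and rose by 0.49 (SE 0.054) in KO. Npc2, which hands cholesterol to NPC1, had 1169.9 ± 79.2, 825 ± 35.7, 975 ± 15.7 and 1136 ± 69.3 CPM, with a fall of 0.50 (SE 0.063) in WT and a rise of 0.22 (SE 0.063) in KO. Lipa, lysosomal acid lipase, ranged from 247 ± 6.93 in young KO to 289 ± 18.3 in young WT, and its fall in WT (-0.15) was lost in 7 of 21 alternative settings (adjusted p from 0.0611 to 0.41), among them the recomputed scale and leaving out replicate 1 of young WT or replicate 2 or 3 of aged WT. Ppt1, a palmitoyl-protein thioesterase, had 136 ± 7.51, 134 ± 5.05, 114 ± 2.97 and 131 ± 8.78 CPM, lowest in young KO.

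Of the 5 membrane proteins, Lamp1, Lamp2 and Cd63 fell with age in WT and rose in KO, Mcoln1 rose in KO and was not called in WT, and Scarb2 was called in no comparison. Lamp2 (chrX:38405063-38456455), a major glycoprotein of the lysosomal membrane needed for autophagosome maturation, measured 1117, 964 and 993 CPM in young WT, 873, 886 and 689.8 in aged WT, 951, 918 and 943 in young KO, and 1403, 1377 and 1344 in aged KO. The aged KO libraries lay above all others. Lamp1 had 2088 ± 39.5, 1711 ± 75.4, 1717 ± 23.0 and 2054 ± 71.7 CPM in young WT, aged WT, young KO and aged KO, so aged WT and young KO were low and the other groups high. It fell by 0.29 (SE 0.052) in WT and rose by 0.26 (SE 0.052) in KO. Cd63, a tetraspanin, had 144 ± 9.94, 118 ± 1.62, 135 ± 7.45 and 173 ± 30.2 CPM, and its KO libraries of the 2 ages overlapped although the rise was called (0.34, SE 0.10, limma adjusted p = 0.00805). Mcoln1, the calcium channel TRPML1 that acts upstream of TFEB activation, had 53.1 ± 2.24, 55.9 ± 1.86, 40.5 ± 1.07 and 50.7 ± 4.05 CPM and was lowest in young KO. Its difference was 0.07 with age in WT and -0.14 between genotypes at 12 months, neither called. Scarb2, a sorting receptor of the lysosomal membrane, ranged between 411 ± 12.0 and 459.8 ± 16.4 CPM.

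Tfeb (chr17:47737036-47792416) measured 4.27, 8.02 and 7.34 CPM in young WT, 8.31, 8.68 and 9.47 in aged WT, 5.11, 5.01 and 7.56 in young KO, and 2.29, 2.36 and 2.77 in aged KO. The aged KO libraries lay below all others and the aged WT libraries above all others, opposite to Lgmn. Tfeb's difference with age in WT, 0.45 (SE 0.20), was not called (limma adjusted p = 0.0668), but it was on the recomputed scale (0.0426) and with edgeR (0.0385). Of its relatives, Mitf measured 131, 125 and 126 CPM in young WT, 80.9, 81.0 and 67.6 in aged WT, 126, 121 and 128 in young KO, and 184, 201 and 188 in aged KO. Mitf thus fell by 0.73 (SE 0.067, limma adjusted p = 5.83e-07) in WT and rose by 0.61 (SE 0.067, limma adjusted p = 3.41e-06) in KO. Tfe3, from 29.8 ± 1.23 to 31.9 ± 2.43 CPM, was called in no comparison, and Tfec was called higher in young KO (0.55, SE 0.11) and lower with age in KO (-0.68, SE 0.11). Of the 11 genes with the E-box in the promoter, 5 fell and 1 rose with age in WT and 9 rose in KO; of the 19 matched genes without it, 14 fell in WT, and 10 rose and 2 fell in KO. Of all tested genes 35.6% fell in WT and 32.9% rose in KO, and the difference between the genes with and without the E-box was not tested.

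Gpnmb, a glycoprotein of lysosomes and melanosomes, had 2906 ± 199.8, 2006 ± 78.9, 2181 ± 147 and 2189 ± 244 CPM in young WT, aged WT, young KO and aged KO. It fell by 0.53 (SE 0.082) in WT, and the KO value was 0.00 (SE 0.082, limma adjusted p = 0.987). Grn (chr11:102430321-102436809), progranulin, a secreted protein delivered to lysosomes, measured 223, 259 and 219.9 CPM in young WT, 201, 193 and 199 in aged WT, 153, 178 and 143 in young KO, and 196, 209.9 and 217 in aged KO. The young KO libraries lay below all others, and the call at 2 months held on the recomputed scale (adjusted p = 0.00121).

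Other genes of the pathway moved in both directions. Their counts are read against all tested genes, of which 35.6% fell and 22.3% rose with age in WT, 32.9% rose and 34.2% fell in KO, and 14.2% were lower in KO at 2 months. Of 34 tested other lysosomal hydrolases and activators, 15 fell (44.1%) and 6 rose (17.6%) with age in WT, and 17 rose (50%) and 8 fell (23.5%) in KO. At 2 months 16 of them were lower in KO (47.1%) and none higher, and 6 (17.6%, against 7.38% of all genes) on the recomputed scale. Among them the sulphatase Arsb, which acts on glycosaminoglycans, rose in KO by 1.09 (SE 0.071), while the hyaluronidase Hyal1 and the phosphatase Acp5 rose in WT by 1.22 (SE 0.092) and 1.15 (SE 0.13). Of 26 other membrane proteins, 12 fell (46.2%) and 7 rose (26.9%) in WT, and 14 rose (53.8%) and 6 fell (23.1%) in KO. On the recomputed scale 8 fell in WT (30.8%, against 29.7% of all genes). The cystine exporter Ctns rose by 0.78 (SE 0.055) in WT, the macrophage-linked Cd68 fell by 1.20 (SE 0.16) in KO, and Npc1, the cholesterol exporter, was higher in aged KO by 0.78 (SE 0.057). V-ATPase subunits, which acidify the lumen, split 3 higher (15%) and 5 lower (25%) in WT and 6 higher (30%) and 5 lower (25%) in KO, of 20 tested, so each share was below that of all genes. Atp6v0a1, a membrane subunit, had an interaction of 1.26 (SE 0.077).

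Of 23 genes for sorting and delivery, 11 fell (47.8%) and 5 rose (21.7%) in WT, and 12 rose (52.2%) and 3 fell (13.0%) in KO. In WT 8 fell on the recomputed scale (34.8%) and 5 with edgeR. The sorting receptors Sorl1 and Sort1 rose by 4.24 (SE 0.11) and 1.68 (SE 0.065) in WT. Sorl1 measured 4.14, 3.61 and 3.72 CPM in young WT, 75.9, 78.4 and 89.6 in aged WT, 2.89, 3.93 and 3.34 in young KO, and 12.0, 13.1 and 10.8 in aged KO. The luminal gene Krt18 was high in the same aged WT libraries, at 1150.4 ± 86.5 against 93.2 ± 8.64 CPM in young WT, and its part in the Sorl1 result was not tested. Gnptab, which builds the mannose 6-phosphate tag of hydrolases, rose by 0.89 (SE 0.068) in KO. Among 18 MiT/TFE factors and mTORC1 regulators, 7 fell (38.9%) and 3 rose (16.7%) in WT, and 8 rose (44.4%) and 6 fell (33.3%) in KO. On the recomputed scale 3 fell and 4 rose in WT. Flcn, a regulator of mTORC1 signalling, fell by 0.68 (SE 0.082) in KO. Autophagy genes numbered 5 higher (21.7%) and 3 lower (13.0%) in WT and 12 higher (52.2%) and 3 lower (13.0%) in KO, of 23. On the recomputed scale 7 were higher and none lower in WT. The cathepsin inhibitor Cst6, a secreted cystatin, fell by 1.58 (SE 0.17) in KO and was not called in WT, and Cst3 fell by 0.51 (SE 0.13) in WT.

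**Figure D5:**
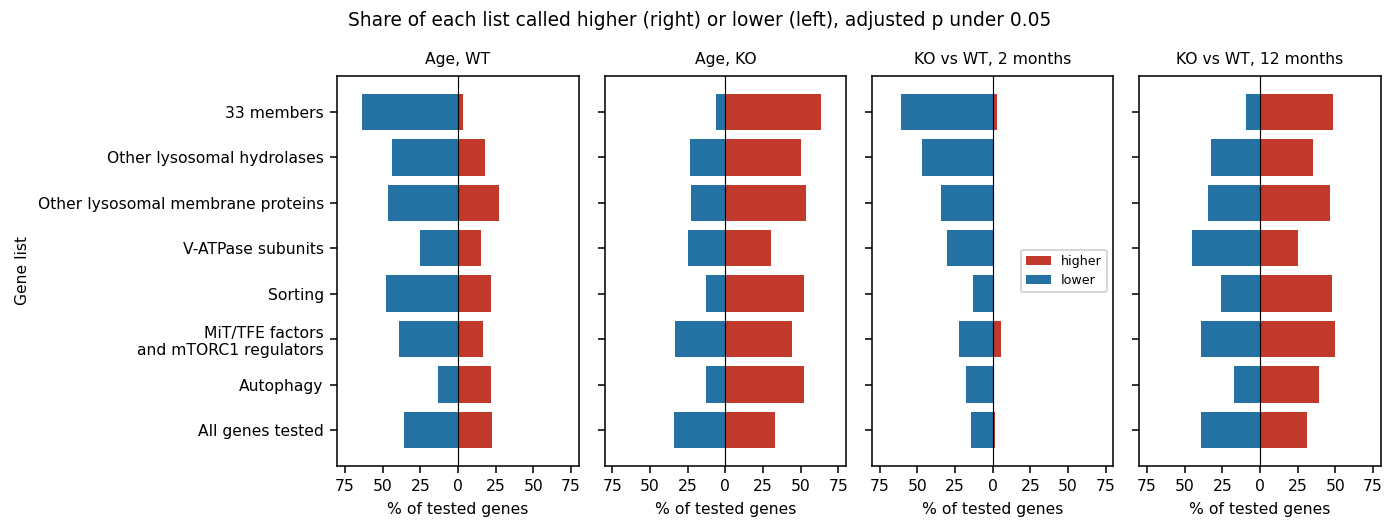
Percent of the tested genes of each list called higher (red, to the right) or lower (blue, to the left) at an adjusted p under 0.05 in limma, in 4 comparisons, with all 13961 tested genes as the bottom bar. The 33 genes have 63.6% lower with age in WT and 63.6% higher with age in KO, against 35.6% and 32.9% of all tested genes.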

How the data were processed

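Total RNA of 12 mouse mammosphere libraries was prepared with the TruSeq Stranded total RNA kit, per the labels' protocols. Per the submitters' processing notes, TopHat2 2.1.0, Bowtie2 2.2.4, SAMtools 0.1.18, HTSeq 0.6.1p1 and mm10 were used. Neither the gene annotation nor the strand setting of the counting is given in the sources used here. Deposited values, a normalised signal, are CPM after TMM scaling, per the file headers. Dividing each by the value of 1 read gave whole reads (within 0.1) for 100% of values, 31845169 to 109079737 per library.

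The design gave a test for normalised values, so limma 3.58.1 (R 4.3.3) was fitted to log2(CPM + 0.5) of the 13961 genes whose mean reached 0.5 CPM, using every library, with a trend and 8 residual degrees of freedom, and Benjamini-Hochberg adjustment within each of 5 comparisons. The deposited columns did not match TMM recomputed here over the 12 libraries, which moved group means of the log2 values by -0.04 to 0.05. The reason for the mismatch was not tested. Alternatives were this recomputed TMM, edgeR 4.0.16 (quasi-likelihood) and DESeq2 1.42.0 on the recovered reads, other pseudocounts and filters, only the groups compared, a replicate block, and leaving out each library. edgeR called 7664, 9333, 1414, 9772 and 8120 genes for age in WT and in KO, genotype at 2 and at 12 months, and the interaction. The scripts were tested on simulated data.

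The members and lists were chosen with earlier results of these data known. Values in every library are given for the members called in each comparison that rose most and that fell most (up to 3 each), plus Tfeb, Ctsb, Ctsd and Psap; others are given by group means or ranges. Of each pathway list, up to 2 genes in each direction per comparison were named; Tfe3, Krt18, the markers named beside Ctss and the library values of Sorl1 and Mitf were singled out after their values were seen. Coordinates of genes are those deposited (mm10). Replicate numbers were checked for pairing by the correlation of deviations from group means.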

Additional observations from a re-analysis of the deposited data

Results flagged for a closer look

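The effect of age differed between KO and WT, by the interaction term in limma, for 28 of the 33 genes. Values here are the KO age effect minus the WT age effect on the log2 scale. Those above 0 among the cysteine cathepsins were Ctso with 0.988, Ctsc with 0.941, Ctsl with 0.674, Ctsb with 0.455, Ctsz with 0.421, Ctsk with 0.362 and Ctsh with 0.254. Among the other proteases Lgmn had 1.58, Tpp1 0.805 and Ctsa 0.557. The glycosidases Glb1, Gaa, Gla, Naglu, Gusb, Man2b1 and Hexa had 0.88, 0.83, 0.689, 0.644, 0.586, 0.479 and 0.348. Among the lipid genes Npc2 had 0.722, Asah1 0.718 and Ppt1 0.216. The membrane proteins Lamp2, Cd63, Lamp1 and Mcoln1 had 0.887, 0.623, 0.545 and 0.242, and Grn and Gpnmb had 0.634 and 0.535. Below 0 were Tfeb with -1.53 and Ctsd with -0.482. The adjusted p of these 28 ran from 5.5e-08 (Lgmn) to 0.0421 (Ppt1). For comparison, 57.7% of all tested genes had an interaction at this threshold.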

How the results depend on the processing

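No called change of the 33 genes reversed its direction under the alternatives run, and calls held in every setting for 15 of 22 genes with age in WT, 21 of 23 with age in KO, 9 of 21 between genotypes at 2 months, 16 of 19 at 12 months and 25 of 28 in the interaction. The count at 2 months went from 21 to 11 when TMM was recomputed over all 12 libraries and to 10 with edgeR on recovered reads. The edgeR fit also used TMM over these 12 libraries, and what its model adds was not tested. With DESeq2 the 2-month calls of Ctsd, Lgmn, Gusb, Lipa and Ppt1 were lost and that of Naglu was gained. Over all tested genes the split at 2 months was 259 higher and 1986 lower, 426 and 1032 with recomputed TMM, and 474 and 940 with edgeR. Leaving out each library in turn gave 18 to 24 genes with age in WT, 22 to 24 with age in KO, 15 to 23 at 2 months, 16 to 21 at 12 months and 26 to 28 in the interaction. Over all 13961 tested genes the same fits called 7225 to 8161, 8546 to 9749, 1407 to 3033, 9062 to 10150 and 7344 to 8273.

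With the replicate number as a block the counts were 26, 23, 22, 21 and 29. Over all 13961 tested genes this setting called 8453, 9681, 2590, 10079 and 8517. The labels do not say what the numbers mark, so whether they pair the libraries cannot be told. In their deviations 8 of 18 same-numbered pairs correlated above 0.1 (range -0.163 to 0.589). Of the 12 libraries, 6 correlated best with their own number.

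Each group has 3 libraries, and the lowest count of any of the 33 genes in a library was 90 reads (Tfeb).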

Other observations

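The battenin gene Cln3 went the way of Tfeb and Ctsd, with means of 22.9 CPM in young WT, 31.9 in aged WT, 20.6 in young KO and 14.8 in aged KO. The leukocyte cathepsin Ctsw, at 1.95, 4.13, 2.39 and 0.84 CPM in the same order, did so too.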
